A study of Homo sapiens with 2 samples.

Results

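The kallikreins examined here are 10 genes of the tissue kallikrein family, KLK1, KLK2, KLK3, KLK4, KLK5, KLK6, KLK10, KLK11, KLK13 and KLK15. Each was taken by its exact symbol from a table of 19607 genes measured in human prostate cancer (CaP) cells. The cells were CWR22rv1, an established human CaP line. In the Akt1/2 knockout (Akt1/2 DKO) library, both Akt1 and Akt2 had been targeted with CRISPR/Cas9 guides, and knockout cells were screened as single clones. The labels do not say which clone was sequenced. The other library came from wild type cells, the control cells. Each condition was 1 library, so no difference below has a replicate check, and no p-value is given. The difference between conditions cannot be told apart from a difference between clones, cultures or library preparations.

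The libraries held 9970815 reads in control cells and 10718634 reads in Akt1/2 DKO cells. These are the authors' estimated counts, rounded to whole reads. AKT1 was 4.96-fold lower in the Akt1/2 DKO library (2645 to 591 reads) and AKT2 was 3.93-fold lower (2362 to 667 reads). The label gives a genotype, not an RNA level, and the paper reported the knockout from sequencing and Western blotting. All 8 luminal epithelial markers had at least 10 reads in both libraries together, with KRT8 at 6408 and 12815 reads. Of these markers 3 were lower (CDH1, HOXB13 and SLC45A3) and 3 were higher (KRT8, KRT18 and EPCAM) by at least 1.5-fold. Of 4 basal markers, KRT5 and TP63 had 0 reads in both libraries, while KRT15 had 13 and 0 reads and KRT14 had 2 and 0. The summed reads of 5 fibroblast markers were 138 in control and 153 in Akt1/2 DKO cells, but single markers differed in opposite directions. COL3A1 had 74 and 9 reads, COL1A1 had 55 and 106, and LUM had 5 and 35. The summed reads of 3 leukocyte markers were 5 and 10, of which CD14 held 4 and 10. Of 4 neuroendocrine markers, SYP had 752 and 998 reads, CHGB had 326 and 244, CHGA had 340 and 2, and INSM1 had 0 in both libraries. The part of these marker differences in the kallikrein values was not tested.

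Kallikreins are secreted serine proteases, made as inactive proforms that other proteases, often other kallikreins, cut into active enzymes. Their genes lie side by side on chromosome 19. In the prostate, KLK3 encodes prostate-specific antigen (PSA), which liquefies semen by cutting semenogelins and is measured in serum in CaP. KLK2 encodes a trypsin-like protease that can activate pro-PSA. KLK2 and KLK3 are classical androgen-induced genes, with androgen response elements in their promoters and enhancers, and KLK4 is also induced by androgen. KLK1 is the true tissue kallikrein, which releases kinins from kininogens and is best known from kidney, pancreas and salivary gland.

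The promoters of KLK3 and KLK2 are shown because both genes were lower in Akt1/2 DKO cells and because the promoters are near copies of each other. Both are the 250 bases before the annotated start (RefSeq, GRCh38.p14, plus strand), at chr19:50854665-50854914 for KLK3 and chr19:50873189-50873438 for KLK2. The RefSeq start of KLK2 lies inside the longer span that GENCODE gives the gene. The capitals mark the window closest to the consensus androgen response element, the arms AGAACA and TGTTCT separated by any 3 bases.
KLK3: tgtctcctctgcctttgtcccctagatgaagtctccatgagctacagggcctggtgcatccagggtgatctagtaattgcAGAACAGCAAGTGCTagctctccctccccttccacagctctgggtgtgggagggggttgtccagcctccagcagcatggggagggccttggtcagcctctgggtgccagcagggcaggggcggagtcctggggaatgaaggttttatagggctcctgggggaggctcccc
KLK2: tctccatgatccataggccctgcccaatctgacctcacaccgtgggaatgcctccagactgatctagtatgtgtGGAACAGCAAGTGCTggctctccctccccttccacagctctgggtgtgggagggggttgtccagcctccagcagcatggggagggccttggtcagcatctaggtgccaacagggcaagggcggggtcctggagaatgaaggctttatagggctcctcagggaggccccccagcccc

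The KLK3 window lay from 170 to 156 bases before the start and differed from the consensus by 2 substitutions, T10A and T13G, counted from 1 at the first base of the element. The KLK2 window lay from 176 to 162 bases before the start and carried the same substitutions plus A1G. The windows of KLK3 and KLK2 thus differed from each other by 1 base, A1G, and the promoters were identical at 206 of 240 aligned bases (85.8%). Both strands of 35114 RefSeq promoters, each reaching from 250 bases before to 50 bases after the start, were searched. An element with at most 3 mismatches over its 12 fixed letters was found in 10.8% of them, and one with at most 2 mismatches in 1.41%. Among the 9 kallikreins with a promoter in this table, only KLK2 and KLK3 held the element with at most 3 mismatches, and only KLK3 held it with at most 2. The single arm AGAACA, on either strand, was found in the KLK3 promoter alone of these genes and in 14.8% of all promoters. Such a match describes letters in a short window and is not evidence of binding. The KLK1 promoter was not analysed here.

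KLK2 and KLK3 are close paralogs and could share reads, so identical stretches of their GENCODE release 29 transcripts were measured. Reads themselves were not examined, and exact stretches do not cover reads aligned with mismatches. Their coding sequences were identical at 668 of 783 aligned bases (85.3%). KLK1, the next closest, was identical to KLK2 at 75.4% and to KLK3 at 74.4%. The longest stretch common to KLK2 and KLK3 was 60 bases, at positions 420 to 479 of the KLK2 coding sequence. It is shown because a short read lying wholly inside it could come from either gene.
KLK2 and KLK3, shared stretch: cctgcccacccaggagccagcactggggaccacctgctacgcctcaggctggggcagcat

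Of all 50-base words in these transcripts, 11 of 2970 in KLK2 (0.370%) and 11 of 1414 in KLK3 (0.778%) occurred in the other gene. The other 8 kallikreins shared no 50-base word with another kallikrein of the cluster. KLK5, KLK6 and KLK10, which had 1 read at most, shared 10.4%, 18.5% and 4.93% of theirs with other genes, mainly overlapping genes on the opposite strand. None of the 10 kallikreins had a fractional count. The qPCR primers that the study lists for KLK3 and KLK2 show how the paralogs differ, with capitals at the bases that differ from the closest site in the transcript of the other gene.
KLK3 forward primer: cGgatgCtgtgaaggtcAtg
KLK3 reverse primer: cttctGagGgtGaActTGCg
KLK2 forward primer: GtttgtggggtGcagagatg
KLK2 reverse primer: ccTCcccTtctttcTGctcA

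The KLK3 primers lie in its coding sequence and have 3 and 7 mismatches to KLK2. The KLK2 primers lie outside its coding sequence and have 2 and 6 mismatches to KLK3. No qPCR values were analysed here.

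The 3 kallikreins best known from prostate, KLK2, KLK3 and KLK4, were each lower in Akt1/2 DKO cells than in control cells, and KLK1 was higher. Fold changes compare reads scaled by the library sizes after TMM normalisation, with Akt1/2 DKO to control at 1.11. The interval after each is a 95% exact interval for counting error only. It does not hold the variation between cultures or clones.

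KLK3 (PSA, ENSG00000142515, chromosome 19 from 50854915 to 50860764, plus strand, GRCh38) had 184 reads in control cells and 29 reads in Akt1/2 DKO cells. It was 7.03-fold lower (interval 4.74 to 10.8; log2 fold change -2.81), the largest difference among the kallikreins. Of the 13318 genes with at least 10 reads in both libraries together, 201 (1.51%) had a log2 fold change at least as low. In FPKM, the level per length of transcript, KLK3 stood at 13.4 in control and 2.19 in Akt1/2 DKO cells.

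KLK2 (ENSG00000167751, 50861568 to 50880567, plus strand), the protease that can activate pro-PSA, had 366 reads in control and 114 reads in Akt1/2 DKO cells. It was 3.56-fold lower (interval 2.88 to 4.43; log2 fold change -1.83), and 490 genes (3.68%) were at least as low. Its FPKM was 16.2 in control and 5.31 in Akt1/2 DKO cells.

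KLK4 (ENSG00000167749, 50906352 to 50910738, minus strand), also known as the protease that matures tooth enamel, was the most abundant kallikrein in both libraries. It had 2430 reads in control and 839 reads in Akt1/2 DKO cells, 3.21-fold lower (interval 2.97 to 3.48; log2 fold change -1.68), and 559 genes (4.20%) were at least as low. The FPKM of KLK4 was 199 in control, against 16.2 for KLK2, the next highest kallikrein. The lead was smaller in Akt1/2 DKO cells, at 64.9 against 40.6 for KLK1, the next highest there. In control cells 2.44% of the genes with an FPKM above 0 had a higher FPKM than KLK4, and in Akt1/2 DKO cells 9.51% did. The 250 bases before either annotated KLK4 start held no androgen response element with 3 or fewer mismatches.

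KLK1 (ENSG00000167748, 50819148 to 50823787, minus strand), which releases kinins, went the other way. It had 116 reads in control and 379 reads in Akt1/2 DKO cells, 2.95-fold higher (interval 2.39 to 3.66; log2 fold change 1.56), and 6.37% of the genes with at least 10 reads had a log2 fold change at least as high. Its FPKM was 13.3 in control, close to that of KLK3, and 40.6 in Akt1/2 DKO cells, where only KLK4 was higher among the kallikreins.

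The remaining 6 kallikreins were barely read or not read at all. KLK11 had 6 reads in control and 7 in Akt1/2 DKO cells, a log2 fold change of 0.07 with an interval from -1.72 to 1.92. KLK15, first found in prostate and able to activate pro-PSA, had 7 and 4 reads, 1.94-fold lower with an interval from 0.493 to 9.04 that includes no change. No direction can be read for either gene at this depth. KLK10 had 0 reads in control and 1 in Akt1/2 DKO cells. KLK5, a protease of skin shedding, KLK6, best known from brain, and KLK13 had 0 reads in both libraries, which allows up to 0.306 CPM, a library-scaled read count, in control and 0.276 CPM in Akt1/2 DKO cells. KLK5, KLK6, KLK10 and KLK15 overlap genes annotated on the opposite strand, and KLK6 also overlaps 1 on its own strand. None of these is in the table, and whether reads were counted by strand is not given in the sources used here.

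**Figure D1:**
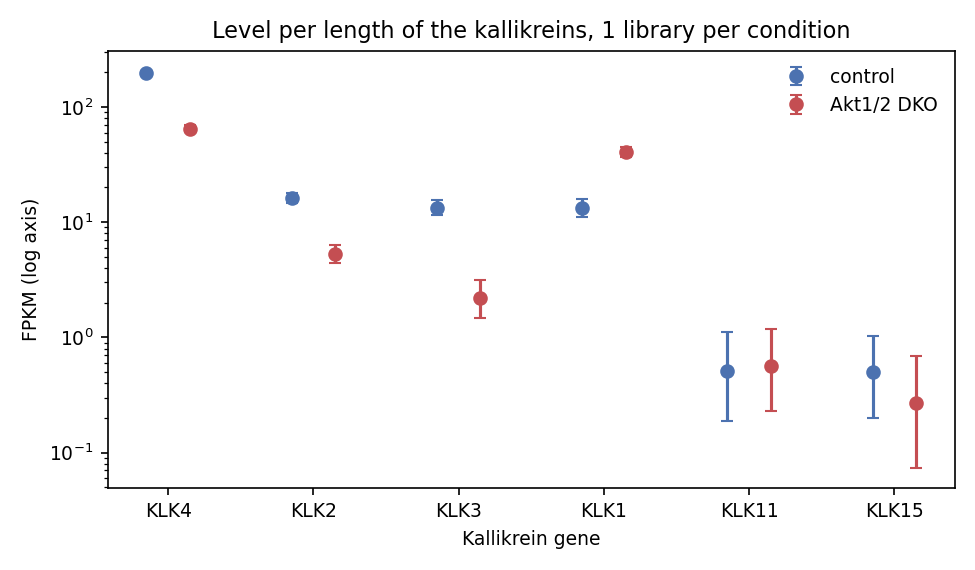
Level per length (FPKM, log axis) of the 6 kallikreins with at least 10 reads in both libraries together, ordered by the control level. Points are the single library of each condition and bars are 95% exact intervals for counting error. KLK4, KLK2 and KLK3 sit lower in Akt1/2 DKO cells, KLK1 sits higher (13.3 to 40.6), and the bars of KLK11 and KLK15 overlap between conditions.

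By counts, 6 of the 10 kallikreins had at least 10 reads in both libraries together. Of these, 4 were lower by at least 1.5-fold (KLK2, KLK3, KLK4 and KLK15, the last with an interval that includes no change), where 15.0% of all 13318 genes were. KLK1 alone was higher by at least 1.5-fold, where 15.9% of all genes were. The median log2 fold change was -1.32 over the 6 kallikreins and 0.01 over all genes. The kallikrein median lies between KLK4 and KLK15, so it rests in part on KLK15, for which no direction can be read. KLK1, KLK2, KLK3 and KLK4 all had at least 100 reads, and at that depth 11.9% of 10956 genes were lower and 11.3% were higher. Under edgeR's exact test with an assumed coefficient of variation between replicates of 0.2, KLK2, KLK3 and KLK4 were called lower and KLK1 higher at an adjusted p threshold of 0.05, where 4.34% of all genes were called lower and 6.05% higher. With an assumed coefficient of 0.4, 0 kallikreins were called, where 1.17% of all genes were called lower and 2.01% higher.

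Summed over the 10 genes, the kallikreins had 3109 reads in control and 1373 reads in Akt1/2 DKO cells, 2.51-fold lower (interval 2.36 to 2.68). KLK2, KLK3 and KLK4 together had 2980 and 982 reads, 3.36-fold lower (interval 3.13 to 3.62). The make-up of the family shifted from KLK4 towards KLK1. KLK4 made up 78.2% of kallikrein reads in control cells (exact interval 76.7 to 79.6) and 61.1% in Akt1/2 DKO cells (58.5 to 63.7). KLK1 made up 3.73% in control cells (3.09 to 4.46) and 27.6% in Akt1/2 DKO cells (25.3 to 30.1). KLK2 went from 11.8% to 8.30%, and KLK3 from 5.92% to 2.11%. On FPKM, which corrects for length, KLK1 made up 5.50% in control and 35.6% in Akt1/2 DKO cells.

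**Figure D2:**
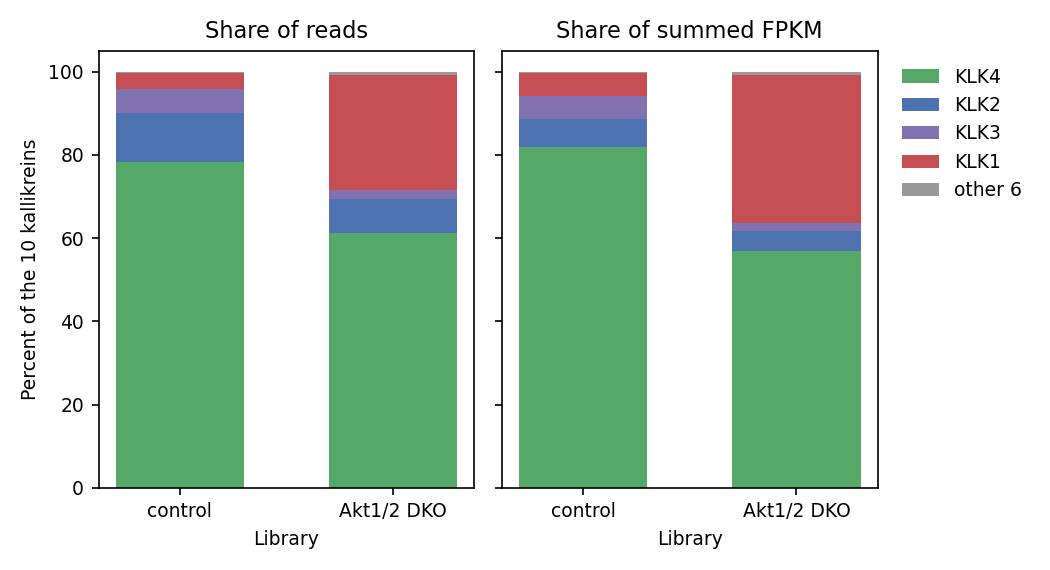
Share of each kallikrein in the family's reads (left) and in the family's summed FPKM (right), in percent, with 1 bar for each library. KLK1 widens from 3.73% to 27.6% of reads, while KLK4 narrows from 78.2% to 61.1%.

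Ratios of reads between kallikreins within a library do not depend on how the libraries were scaled. KLK4 and KLK2 kept about the same ratio, with 6.64 reads of KLK4 per read of KLK2 in control and 7.36 in Akt1/2 DKO cells. This ratio changed by a factor of 1.11, with an interval from 0.882 to 1.40. KLK3 moved relative to both. It had 0.503 reads per read of KLK2 in control and 0.254 in Akt1/2 DKO cells, a change by a factor of 0.506 (interval 0.313 to 0.800). Against KLK4 the change was by a factor of 0.457 (interval 0.295 to 0.684). KLK1 moved against both, by a factor of 10.5 relative to KLK2 (interval 7.72 to 14.3) and 9.46 relative to KLK4 (interval 7.54 to 11.9). The intervals again cover counting error only. For the rarely read genes the intervals were wide, with the ratio of KLK15 to KLK2 changing by a factor of 1.83 (interval 0.386 to 7.36).

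**Figure D3:**
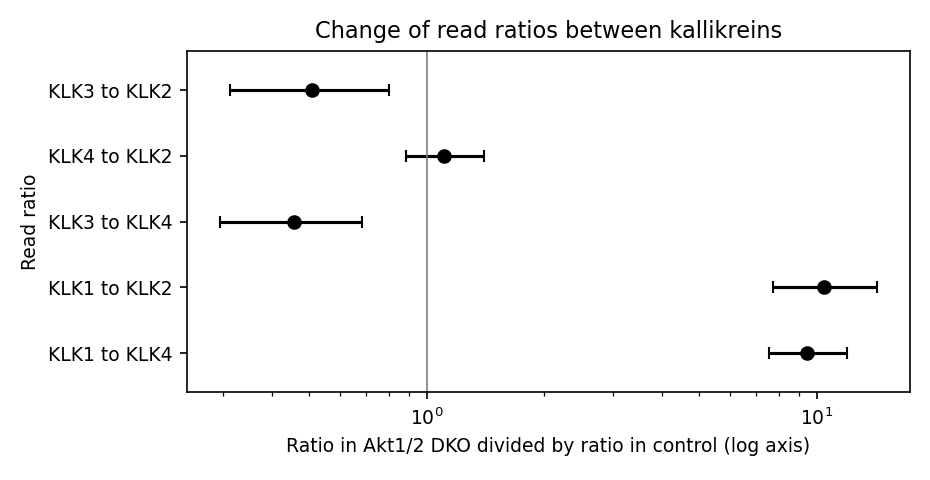
Read ratio between pairs of kallikreins in Akt1/2 DKO cells divided by the same ratio in control cells (log axis), with 95% exact intervals for counting error. The ratio of KLK4 to KLK2 spans 1, both ratios of KLK3 lie below 1, and both ratios of KLK1 lie above 7.

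The order of levels per length changed accordingly. In control cells KLK4 stood alone at an FPKM of 199 (interval 191 to 207). KLK2 at 16.2 (14.6 to 18.0), KLK3 at 13.4 (11.5 to 15.5) and KLK1 at 13.3 (11.0 to 16.0) followed, and neighbours in this order overlapped in their intervals. In Akt1/2 DKO cells the order was KLK4 at 64.9 (60.6 to 69.4), KLK1 at 40.6 (36.6 to 44.8), KLK2 at 5.31 (4.38 to 6.38) and KLK3 at 2.19 (1.47 to 3.15), with no overlap between neighbours. KLK11 and KLK15 came last in control cells, at 0.51 and 0.50, with KLK10 below them in Akt1/2 DKO cells.

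Along the chromosome, the lower and the higher kallikreins lay close together. The 15 protein-coding genes of the cluster spanned 50819148 to 51084245. KLK1 stood at the edge of the cluster, next to KLK15, then KLK3, KLK2 and KLK4. Of the other kallikreins of the cluster, KLK7, KLK8, KLK9 and KLK12 had 0 reads in both libraries. KLK14 had 2 and 8 reads, with an interval of the log2 fold change from -0.47 to 5.12. Outside the cluster, 17 neighbouring protein-coding genes within 500 kb had at least 10 reads, and their median log2 fold change was 0.01. Of these, 3 were lower by at least 1.5-fold and 3 were higher, where 15.0% and 15.9% of all genes were. Next to KLK1, C19orf48 was 1.54-fold lower with many reads (6826 to 4921), but 1.49-fold lower under total count scaling and 1.48-fold lower under upper quartile scaling. Beyond KLK14, CTU1 had 73 and 74 reads. POLD1, a DNA polymerase subunit, had 1713 and 1855 reads, a log2 fold change of -0.03. The other neighbours past 1.5-fold, NAPSA, SIGLEC10, FAM71E1, LRRC4B and SIGLEC7, had 33 reads or fewer in each library.

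**Figure D4:**
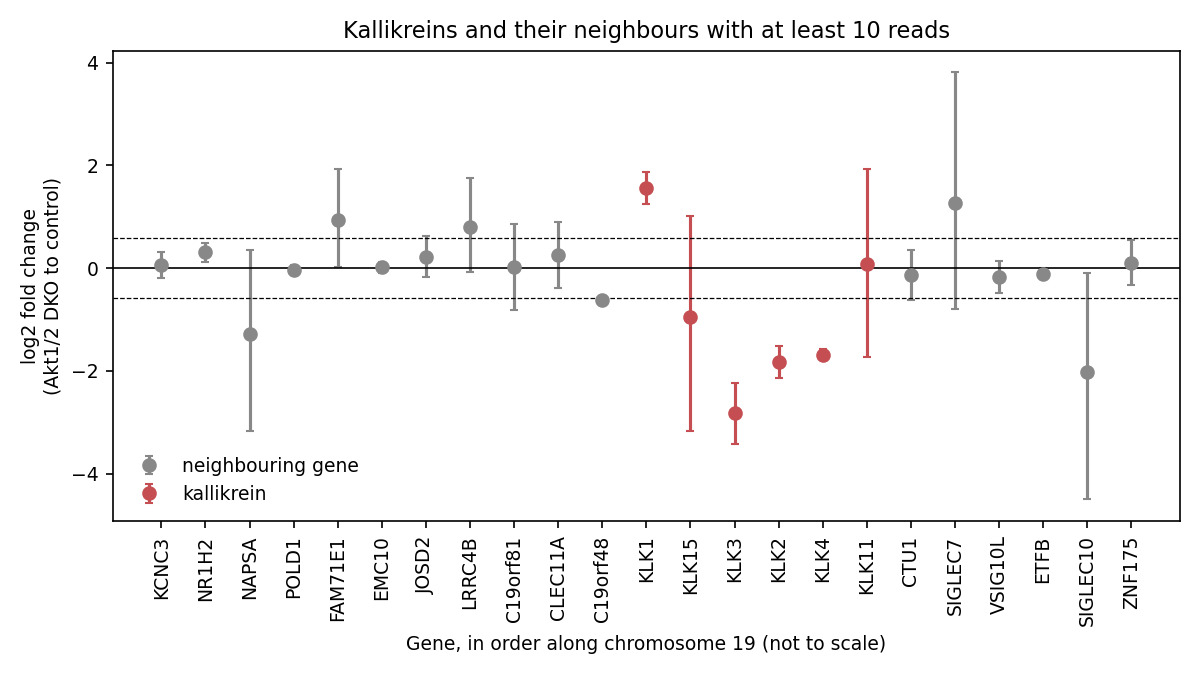
Log2 fold change (Akt1/2 DKO to control) of the kallikreins examined here (red) and of neighbouring protein-coding genes within 500 kb (grey). All have at least 10 reads in both libraries together, and they stand in order along chromosome 19, not to scale. KLK14 is not drawn. Bars are 95% exact intervals for counting error and dashed lines mark 1.5-fold. KLK2, KLK3 and KLK4 lie below the lower line and KLK1 above the upper line. KLK15 also lies below the lower line, with a bar that spans 0. The points of neighbours with narrow bars lie between the lines, apart from C19orf48 at -0.62.

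Factors of the prostate lineage, nuclear receptor coactivators and the glucocorticoid receptor were examined because they are known to act on prostate epithelial genes. All 7 factors listed had at least 10 reads, 2 were lower and 2 were higher by at least 1.5-fold (15.0% and 15.9% of all genes), and their median log2 fold change was -0.15. HOXB13, a homeobox factor of the prostate lineage, was 3.03-fold lower (2363 to 865 reads, interval 2.80 to 3.28). The coactivator NCOA2 was 2.13-fold lower (843 to 439 reads, interval 1.89 to 2.39). NR3C1, which encodes the glucocorticoid receptor, was 5.90-fold higher (57 to 373 reads, interval 4.46 to 7.94). SPDEF, an epithelial ETS factor known to bind the KLK3 promoter, was 1.51-fold higher (766 to 1283 reads). FOXA1, a pioneer factor that opens chromatin, was at 2511 and 3289 reads, a log2 fold change of 0.24. GATA2 was at 2031 and 1924 reads, a log2 fold change of -0.23. The part of these factors in the kallikrein differences was not tested.

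Inhibitors of kallikreins were few in these cells. Of 10 listed, 3 had at least 10 reads and none passed 1.5-fold in either direction. SPINK5, a skin inhibitor of kallikreins, had 105 reads in control and 81 in Akt1/2 DKO cells (log2 fold change -0.52, interval -0.96 to -0.09). SERPINB6 had 309 and 314 reads, and A2M, which traps proteases including PSA, had 31 and 33 reads. SERPINA3, the main partner of PSA in serum, and SERPINA5, the protein C inhibitor, had 0 reads in both libraries.

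Of 19 listed substrates and receptors, 6 had at least 10 reads, 1 was lower and 2 were higher by at least 1.5-fold (15.0% and 15.9% of all genes), with a median log2 fold change of 0.30. The 1 lower of 6 is close to the share over all genes. The insulin-like growth factor binding proteins, which kallikreins can cut, moved apart. IGFBP2 was 5.19-fold lower (2213 to 473 reads, interval 4.69 to 5.74), and IGFBP3, a substrate of PSA, was 2.67-fold higher (264 to 780 reads, interval 2.31 to 3.08). PLAUR, the urokinase receptor, was 2.35-fold higher (28 to 73 reads, log2 fold change 1.23 with an interval from 0.59 to 1.92). The protease-activated receptor gene F2RL1 had 288 and 337 reads, and F2R had 10 and 16. The semenogelin genes SEMG1 and SEMG2, the kininogen gene KNG1 and the kinin receptor genes BDKRB1 and BDKRB2 had 0 reads in both libraries.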

How the data were processed

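RNA sequencing covered a single library per condition, Akt1/2 DKO and control. For each gene the authors deposited an estimated count, not normalised, and an FPKM value, the fragments scaled to transcript length and library size. The submitters' processing notes name fastp 0.20.0, TopHat, Cufflinks, edgeR and the build GRCh38.p10, with no roles. The authors' fold changes, p-values and other comparison columns were not used. Counts were rounded to whole reads, since 9.44% (control) and 9.24% (Akt1/2 DKO) were not whole.

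Genes with at least 10 reads in both libraries together were kept (13318 of 19607), and edgeR 4.0.16 in R 4.3.3 gave the TMM library sizes. The 95% exact (Clopper-Pearson) intervals were computed in Python 3.11.15 with scipy 1.17.1, given the sum of reads, and odds ratios were exact and conditional. A library under 3 reads was set to 3 reads, and the fold is then a bound. The steps were tested on simulated data with 13282 genes. The 200 changed genes were drawn from genes with a mean of at least 100 reads and were changed by 2-fold or more. The simulated noise was counting error alone, which is what the intervals assume. All 200 changed genes (100%) passed 1.5-fold, as did 4.90% of the others, and 95.9% of the intervals held the true fold. The simulation cannot show how well changes of rarely read genes are found, nor the error between cultures or clones.

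Gene positions and transcripts came from GENCODE release 29 and promoters from RefSeq. The genes named are AKT1, AKT2, the kallikreins and, from each list, up to 4 genes with the largest log2 fold change and up to 2 with the most reads. Other genes (F2RL1, genes at 0 reads, further markers and neighbours) were chosen after their values were seen. The members and lists were chosen with earlier results of these data known. Some results are not reported here. Alternatives were 3 other scalings, FPKM, read filters, thresholds, assumed coefficients of variation, and other windows, word lengths and mismatch limits.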

Additional observations from a re-analysis of the deposited data

How the results depend on the processing

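No paired analysis was possible because both conditions have a single library each. The log2 fold changes of the 6 kallikreins with at least 10 reads kept their direction and their side of 1.5-fold under 5 other scalings or values, from -2.82 to -2.61 for KLK3, -1.84 to -1.61 for KLK2, -1.69 to -1.61 for KLK4 and 1.55 to 1.61 for KLK1. KLK15 was not counted as lower when each library had to hold at least 10 reads, or when 50 reads were required in total. It was also not counted with a 2-fold threshold, or where the interval had to exclude no change. Each of these cases left 3 lower kallikreins. With edgeR's exact test and an assumed coefficient of variation of 0.4, 0 were lower and 0 were higher. On FPKM, KLK1, KLK2 and KLK4 made up 5.50%, 6.68% and 81.9% of the family in control and 35.6%, 4.66% and 57.0% in Akt1/2 DKO cells. By FPKM, KLK2, KLK3 and KLK1 ranked 2, 3 and 4 in control and 3, 4 and 2 in Akt1/2 DKO cells. Among neighbours, 1 of 6 was lower and 1 higher within 250 kb, and 9 of 36 were lower and 3 higher within 1000 kb, where 15.0% and 15.9% of all genes were. The scalings of C19orf48 were added after seeing the data. With words of 30 bases, KLK2, KLK3 and KLK4 shared 2.04%, 4.25% and 1.97% with another gene of the cluster, and with words of 100 bases KLK2 and KLK3 shared 0%. With at most 2 mismatches, or with the single arm, 1 kallikrein (KLK3) held the element. Depth limits KLK5, KLK6, KLK10, KLK11, KLK13 and KLK15, whose reads were too few to show a difference of a few fold.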

Other observations

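Serine proteases of the cell surface, some of which can activate other proteases and share substrates with kallikreins, were also measured. Of 9 listed, 6 had at least 10 reads in both libraries together, and 5 of these had reads in each library. Of the 5, 3 were lower by at least 1.5-fold and 0 were higher, where 15.0% and 15.9% of all genes were, and their median log2 fold change was -1.62. The remaining gene, TMPRSS4, had 10 reads in control and 0 in Akt1/2 DKO cells, so it passed the read filter through the control library alone. This count was chosen after seeing the data. TMPRSS2, an androgen-regulated protease, had 219 reads in control and 53 reads in Akt1/2 DKO cells, 4.58-fold lower (interval 3.38 to 6.31). HPN, which encodes hepsin, had 230 and 74 reads, 3.45-fold lower (interval 2.64 to 4.54). PRSS8, which encodes prostasin, had 186 and 67 reads, 3.08-fold lower (interval 2.32 to 4.13). ST14, which encodes matriptase, the protease that prostasin acts with in epithelia, was at 801 and 1080 reads, a log2 fold change of 0.28 (interval 0.15 to 0.42). Each of these values rests on 1 library per condition.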
